A study of Mus musculus with 10 samples.

Results

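In mouse oocytes that lack Setdb1, 15 expressed genes were lower in every mutant library than in every control library by a fixed margin. They were selected on these values, from 24453 gene symbols. A gene had to reach at least 1 RPKM in each of 6 control libraries, and each of 4 mutant libraries had to lie at or below 50% of the lowest control. RPKM are reads per kilobase of transcript, scaled to the total of a library. Of 8139 symbols with at least 1 RPKM in all controls, 22 met these values (0.27%), and 7 of them were left out by name (Setdb1 itself, Sox8, St3gal5, Ust, Cdc42ep3, Fam83d and Zfp41). The mirror condition, with the roles of mutants and controls exchanged, was met by 71 of 8283 symbols. Because the values chose the genes, their difference between mutants and controls is given below as a description with no test.

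The libraries came from denuded germinal vesicle oocytes, which are fully grown oocytes arrested before the first meiotic division. Each library held 1 pool of 16 oocytes from a mouse of strain C57Bl/6J, isolated in 2.5 mM milrinone, a phosphodiesterase inhibitor that keeps oocytes from resuming meiosis. Mutants (Setdb1 F/-; ZP3-cre, 4 libraries) carried a deleted and a floxed allele with Cre under the Zp3 promoter, which acts in growing oocytes, so deletion begins only once growth has started. The controls were Setdb1 F/- without Cre (2 libraries) and Setdb1 F/+; ZP3-cre (4 libraries). F/- oocytes share the deleted and the floxed allele with the mutants and lack Cre. F/+; ZP3-cre oocytes share the floxed allele and Cre and have a wild-type allele in place of the deleted allele. Every group therefore carried an altered Setdb1 allele. Fewer intact oocytes and less RNA per oocyte cannot be told apart in pools.

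SETDB1 is an enzyme that methylates histone H3 at lysine 9. It is brought to retroviral elements and to some genes by KRAB zinc finger proteins and their partner TRIM28, and the mark it writes is known for keeping chromatin silent. A growing oocyte builds up a store of RNA, and a transcript level at this stage reflects synthesis and decay together.

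Setdb1 RPKM was 4.06, 2.55, 3.32 and 1.31 in the mutants, against 19.9 to 52.5 in the 6 controls. Estimated depth was 45940000 to 72680000 reads per library. The median RPKM over the 11338 tested genes lay between 5.5 and 6.14 in all 10 libraries. Summed RPKM of 12 oocyte markers (Gdf9, Zp3, Figla and others) was 6671 to 6911 in the mutants, 7272 to 8505 in F/- and 6516 to 8333 in F/+; ZP3-cre. Of these 12, 11 did not pass the limma test between mutants and controls and Nobox, an oocyte transcription factor gene, rose from 204.7 ± 21.3 RPKM (SD, n = 6) to 273.7 ± 25.5 (SD, n = 4; limma adjusted p = 0.023). The Nobox call was lost with no filter and without F/-; ZP3-cre replicate 1 or 2 or F/+; ZP3-cre replicate 1 or 4 (limma adjusted p up to 0.076). Summed RPKM of 12 granulosa and cumulus markers was 78.1 to 111 in the mutants, 76.1 to 77.9 in F/- and 90.7 to 104 in F/+; ZP3-cre. Serpine2 was the largest part of this sum, with means of 65.0 RPKM in mutants and 66.0 in controls. Nr5a2 had 13.2 and 12.7, Amh 0.317 and 0.287, and Foxl2 0.0927 and 0.00384. For 9 theca and stroma markers the sum was 0.878 to 3.30, 1.83 to 3.93 and 1.36 to 1.95. Of these, 5 of the 12 and 8 of the 9 were too low to test, and none of the tested ones passed in limma.

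The promoters of 4 of the genes are printed here because they hold very different amounts of CpG. Each is the RefSeq window (GRCm38.p6) from 250 bases before to 50 bases after a transcription start, 5′ to 3′ on the gene's strand, with CG dinucleotides in capitals. Inadl and Gm10466 have the highest control levels of the 15, Tnfrsf21 has the lowest mutant share of control, and Krt25 holds the only TATAAA box found.
Inadl, chr4:98395576-98395875, plus strand: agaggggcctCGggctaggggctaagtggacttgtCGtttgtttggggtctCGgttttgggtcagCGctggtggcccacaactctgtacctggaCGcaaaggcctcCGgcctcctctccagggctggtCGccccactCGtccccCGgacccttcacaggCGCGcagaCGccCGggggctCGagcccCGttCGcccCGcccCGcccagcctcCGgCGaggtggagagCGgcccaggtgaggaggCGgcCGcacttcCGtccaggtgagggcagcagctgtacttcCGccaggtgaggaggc
Tnfrsf21, chr17:43016305-43016604, plus strand: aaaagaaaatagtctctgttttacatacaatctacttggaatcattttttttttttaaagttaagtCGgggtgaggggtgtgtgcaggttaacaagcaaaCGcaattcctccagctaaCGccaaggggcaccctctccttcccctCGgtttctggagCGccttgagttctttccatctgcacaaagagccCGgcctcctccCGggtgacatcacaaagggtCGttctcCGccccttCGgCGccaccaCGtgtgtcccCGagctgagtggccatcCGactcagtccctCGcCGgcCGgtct
Gm10466, chr11:24730673-24730972, minus strand: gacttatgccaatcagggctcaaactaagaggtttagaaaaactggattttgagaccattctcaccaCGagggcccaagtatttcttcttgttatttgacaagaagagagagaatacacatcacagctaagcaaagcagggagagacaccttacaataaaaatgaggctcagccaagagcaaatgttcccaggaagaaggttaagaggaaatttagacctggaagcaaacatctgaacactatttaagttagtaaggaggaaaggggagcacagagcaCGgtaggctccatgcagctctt
Krt25, chr11:99322902-99323201, minus strand: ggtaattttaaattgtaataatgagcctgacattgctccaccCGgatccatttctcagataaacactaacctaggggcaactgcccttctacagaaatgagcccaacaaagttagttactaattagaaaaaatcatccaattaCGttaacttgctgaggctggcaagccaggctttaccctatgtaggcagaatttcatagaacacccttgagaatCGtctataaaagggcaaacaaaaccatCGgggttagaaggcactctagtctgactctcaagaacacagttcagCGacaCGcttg
The printed Inadl window holds 25 CpG, that of Tnfrsf21 17, that of Krt25 6 and that of Gm10466 2. Inadl has other starts, whose windows hold 9 and 4 CpG.

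The mutant mean ranged from 3.87% (Tnfrsf21) to 28.4% (1700056E22Rik) of the control mean, with a median of 14.7% over the 15 genes. It was under 10% in 4 genes, from 10% to 20% in 8 and from 20% to 30% in 3. These were mostly modest transcripts. Their median control mean was 3.01 RPKM, against 10.4 RPKM for all genes with at least 1 RPKM in every control, and only 4 had a control mean above 5 RPKM. In the mutants 13 of the 15 had a mean below 1 RPKM.

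**Figure D1:**
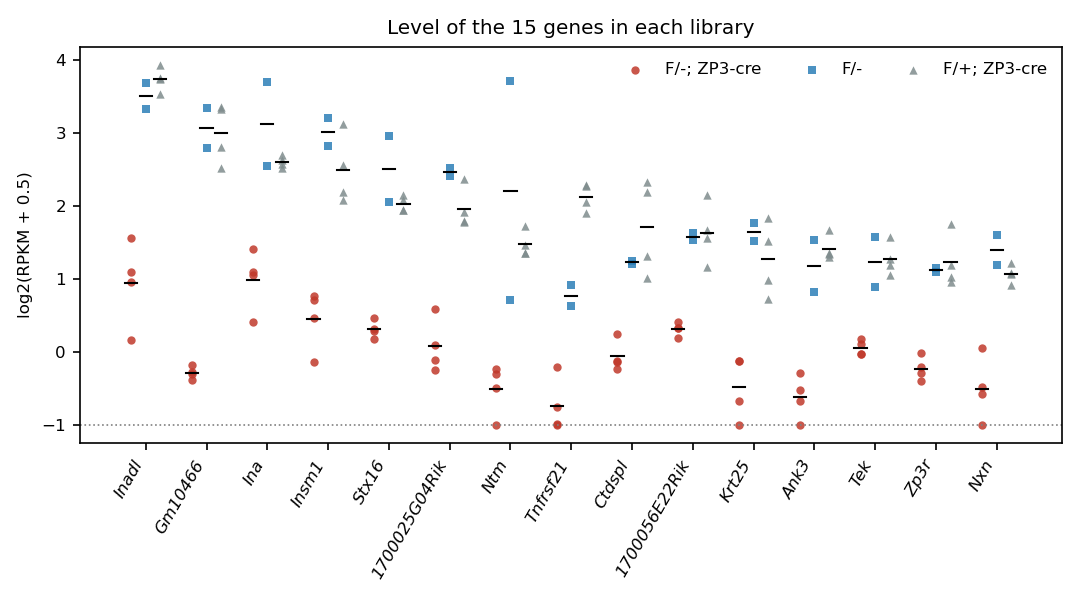
Log2(RPKM + 0.5) of each of the 15 genes in every library, with red circles for the 4 mutant, blue squares for the 2 F/- and grey triangles for the 4 F/+; ZP3-cre libraries; short black lines are group means on this scale and the dotted line is an RPKM of 0. In each gene the mutant points lie below all control points, as the selection required, and the F/- squares of Ntm (12.6 and 1.13 RPKM) lie far apart.

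Inadl, now named Patj, had the highest control level. It encodes a scaffold with many PDZ domains that belongs to the Crumbs complex, which sets up the apical side of polarised cells and their tight junctions. The gene lies at chr4:98395560-98719603 on the plus strand (GRCm38). Inadl RPKM was 1.44, 0.619, 1.64 and 2.46 in the mutants, 9.60 and 12.4 in F/-, and 12.9, 13.1, 11.1 and 14.8 in F/+; ZP3-cre. The controls lay within 9.60 to 14.8 RPKM, and the highest mutant reached 25.6% of the lowest control. Mean Inadl RPKM was 1.54 ± 0.756 (SD, n = 4) in mutants and 12.3 ± 1.77 (SD, n = 6) in controls, 7.99-fold lower. All 4 RefSeq transcripts of Inadl were lower, with mutant means from 12.5% to 21.7% of control. The 7340-base transcript NM_172696 went from 11.6 to 1.81 RPKM, and the 2104-base transcript NM_001005784, which stood for the gene, from 12.3 to 1.54 RPKM. Rows of a gene share reads, so they do not count as separate evidence.

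Gm10466, a long noncoding RNA at chr11:24721006-24730722 on the minus strand, had the second highest control level. Its RPKM was 0.265, 0.325, 0.386 and 0.311 in the mutants, 6.45 and 9.62 in F/-, and 6.51, 9.79, 5.24 and 9.59 in F/+; ZP3-cre. Mean Gm10466 RPKM was 0.322 ± 0.0501 (SD, n = 4) in mutants and 7.87 ± 2.03 (SD, n = 6) in controls, and the mutant mean was 4.09% of control. This rests on about 40 to 52 estimated reads per mutant library and 729 to 1725 per control library.

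A pair of cytoskeletal filament genes were among the 15. Ina encodes alpha-internexin, an intermediate filament protein of neurons. Ina RPKM was 1.63, 0.827, 1.58 and 2.15 in the mutants, 5.38 and 12.5 in F/-, and 5.67, 5.22, 5.45 and 5.99 in F/+; ZP3-cre. F/- replicate 2 stood well above the other 5 controls, which lay between 5.22 and 5.99, so the mutant mean was 23.1% of all controls, 17.3% of the F/- mean and 27.7% of the F/+; ZP3-cre mean. Krt25 encodes a type I keratin of the hair follicle's inner root sheath. Krt25 RPKM was 0.415, 0.129, 0.422 and 0 in the mutants, 2.36 and 2.92 in F/-, and 1.15, 3.08, 2.36 and 1.48 in F/+; ZP3-cre. Mutant replicate 4 was listed at 0, and the mutant mean was 10.8% of the control mean.

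Ank3 encodes ankyrin-G, an adapter that ties membrane proteins to the spectrin skeleton and organises the axon initial segment. Ank3 RPKM was 0.320, 0.00235, 0.129 and 0.196 in the mutants, 1.28 and 2.41 in F/-, and 2.06, 2.68, 1.96 and 2.03 in F/+; ZP3-cre. The mutant mean was 7.82% of the control mean, and mutant replicate 2 held about 1 estimated read. All 9 Ank3 transcripts in the table met the same margin, with mutant means from 7.82% to 17.6% of control.

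At the cell surface, Tnfrsf21, Ntm and Tek were selected. Tnfrsf21 (chr17:43016555-43089188, plus strand) encodes death receptor 6, a TNF receptor family member with a cytoplasmic death domain. Tnfrsf21 RPKM was 0.364, 0, 0.0960 and 0.00470 in the mutants, 1.04 and 1.39 in F/-, and 3.67, 3.24, 4.32 and 4.38 in F/+; ZP3-cre. Both F/- libraries lay below all 4 F/+; ZP3-cre libraries and above all mutants. The mutant mean of 0.116 ± 0.171 RPKM (SD, n = 4) was 9.54% of the F/- mean and 2.98% of the F/+; ZP3-cre mean.

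Ntm encodes neurotrimin, a lipid-anchored adhesion protein of the IgLON family on neurons. Ntm RPKM was 0.208, 0.315, 0.355 and 0 in the mutants, 12.6 and 1.13 in F/-, and 2.27, 2.06, 2.81 and 2.06 in F/+; ZP3-cre. The 2 F/- libraries differed by 11.1-fold and stood on either side of the F/+; ZP3-cre libraries, so the mutant mean was 3.20% of F/- and 9.53% of F/+; ZP3-cre.

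Tek encodes TIE2, the receptor tyrosine kinase for angiopoietins, known from endothelial cells. Tek RPKM was 0.481, 0.629, 0.479 and 0.581 in the mutants, 1.36 and 2.49 in F/-, and 1.58, 1.91, 1.78 and 2.49 in F/+; ZP3-cre. Mutant values lay within a narrow band, and their mean was 28.0% of the control mean. Of 11 blood, immune and endothelial markers, 5 were tested and none passed the limma test (adjusted p under 0.05) in either direction. Their summed RPKM was 22.9 to 43.1 in the mutants, 45.4 to 46.8 in F/- and 29.9 to 40.2 in F/+; ZP3-cre. Cdh5, the endothelial cadherin, and the globin genes Hbb-b1 and Hba-a1 were listed at 0 in all 10 libraries, Pecam1 was 20.1 ± 4.35 RPKM (SD, n = 6) in controls and 13.7 ± 5.23 (SD, n = 4) in mutants, and Kdr was 0.353 RPKM in controls and 1.15 in mutants. Tie1 was 1.54 RPKM in controls and 0.874 in mutants, C1qb 14.5 and 12.7, and Cd68 1.22 and 3.89. Adgre1, too low to test, was 0.000707 RPKM in controls and 0.555 in mutants (0.271 to 0.836). Ptprc and C1qa had means of at most 0.0276 RPKM in mutants and controls. The part of these markers in the Tek values was not tested.

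Insm1 is an intronless gene for a zinc finger transcription factor of neuroendocrine cells. Insm1 RPKM was 1.14, 0.406, 1.21 and 0.886 in the mutants, 6.55 and 8.71 in F/-, and 5.39, 3.75, 8.23 and 4.09 in F/+; ZP3-cre. Controls spread over more than a 2-fold range, and the mutant mean was 14.9% of theirs. Nxn encodes nucleoredoxin, a thioredoxin relative that binds Dishevelled in the Wnt pathway. Nxn RPKM was 0.173, 0.215, 0.537 and 0 in the mutants, 1.8 and 2.53 in F/-, and 1.62, 1.59, 1.82 and 1.39 in F/+; ZP3-cre. Its mutant mean was 12.9% of control, with replicate 3 highest. Ctdspl encodes a small phosphatase related to those that act on the tail of RNA polymerase II. Ctdspl RPKM was 0.406, 0.419, 0.352 and 0.689 in the mutants, 1.81 and 1.88 in F/-, and 4.07, 4.54, 1.52 and 1.99 in F/+; ZP3-cre. Replicates 1 and 2 of F/+; ZP3-cre stood above the other 4 controls, and the mutant mean was 17.7% of all controls.

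Stx16 encodes syntaxin 16, a SNARE protein for membrane fusion at the trans-Golgi network. Stx16 RPKM was 0.746, 0.721, 0.633 and 0.882 in the mutants, 3.66 and 7.28 in F/-, and 3.34, 3.37, 3.74 and 3.92 in F/+; ZP3-cre. All controls but F/- replicate 2 lay within 3.34 to 3.92 RPKM, and the mutant mean was 17.7% of the control mean. Its 4 transcripts gave nearly the same share, 17.68% to 17.70%. Zp3r encodes a protein of the sperm acrosome that was described as a receptor for the zona pellucida protein ZP3. Zp3r RPKM was 0.321, 0.367, 0.486 and 0.260 in the mutants, 1.71 and 1.64 in F/-, and 1.45, 1.79, 2.87 and 1.55 in F/+; ZP3-cre. The mutant mean was 19.6% of control, on about 31 to 54 estimated reads per mutant library.

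The remaining 2 genes carry only systematic names. 1700025G04Rik RPKM was 1.0, 0.345, 0.430 and 0.568 in the mutants, 4.83 and 5.24 in F/-, and 3.27, 2.97, 4.65 and 2.92 in F/+; ZP3-cre, a mutant mean of 14.7% of control. Both F/- libraries lay above all F/+; ZP3-cre libraries. 1700056E22Rik RPKM was 0.827, 0.644, 0.758 and 0.758 in the mutants, 2.39 and 2.59 in F/-, and 1.73, 2.45, 3.95 and 2.69 in F/+; ZP3-cre, a mutant mean of 28.4% of control.

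Trim35 was proposed as a marker of the set and was not one of the 15. It encodes an E3 ubiquitin ligase of the tripartite motif family. Trim35 RPKM was 0.133, 0.0338, 0.0646 and 0 in the mutants, 7.10 and 0.818 in F/-, and 3.94, 3.91, 3.57 and 4.12 in F/+; ZP3-cre. All mutants were below all controls, but F/- replicate 2 was under 1 RPKM.

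The highest mutant value as a share of the lowest control sets the edge of the selection. Just inside were 1700056E22Rik (47.7%), Tek (46.3%), Ctdspl (45.3%) and Ina (41.2%). Just outside were Tex15 (51.9%), Pde4a (51.9%), Parp8 (52.2%) and Ece1 (52.8%). Tex15, a meiotic recombination and piRNA gene, had 17.1 ± 1.78 RPKM (SD, n = 6) in controls and 6.94 ± 0.763 (SD, n = 4) in mutants, a higher level than all 15 in both groups.

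**Figure D2:**
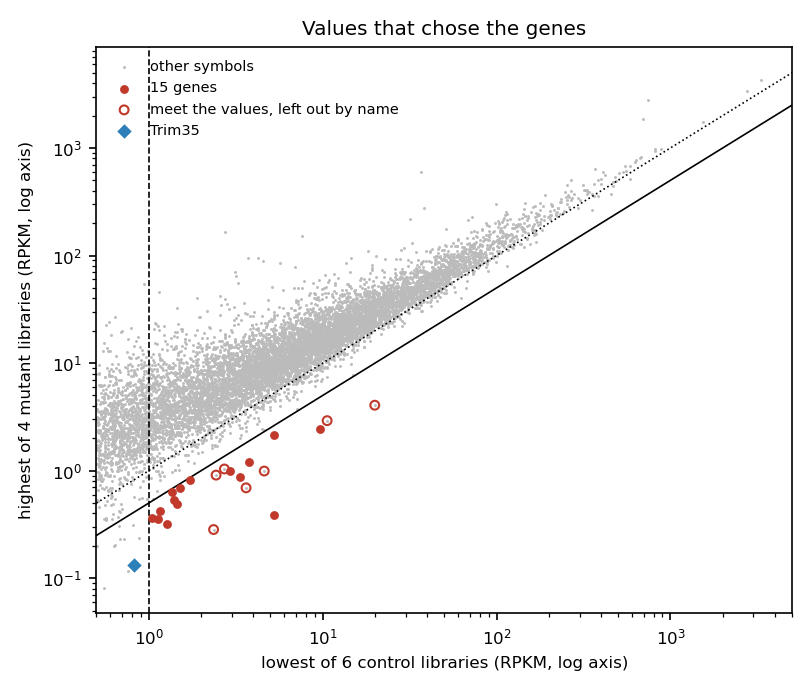
Highest of the 4 mutant values against the lowest of the 6 control values, in RPKM on log axes, for symbols with a lowest control of at least 0.5 RPKM (mutant values under 0.05 are drawn at 0.05), with a solid line at 50%, a dotted line at equal values and a dashed line at 1 RPKM. The 15 genes (filled red) and the 7 left out by name (open red) lie below the solid line and right of the dashed line, and Trim35 (blue diamond) lies left of it.

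The values of the set in the 4 mutant libraries, which the selection used, varied between libraries. Each library is 1 pool, so differences between mutant libraries were not tested. The median RPKM of the 15 genes as a percentage of each gene's control mean was 17.5, 8.66, 15 and 14.3 in mutant replicates 1 to 4. Replicate 2 had the lowest mutant value in 7 genes, replicate 4 in 4, replicate 3 in 3 and replicate 1 in 1. Summed RPKM over the set was 5.96 in replicate 2 and 9.49 to 9.75 in the other mutants, against 56.7 to 74.8 in the controls. Setdb1 itself was lowest in replicate 4, at 1.31 RPKM, where the median of the set was 14.3%. Among the controls, F/- replicate 2 was the higher F/- library in 13 of 15 genes and the highest of all 6 controls in 6. These counts, in mutants and in controls, were not made over all genes, so they are not read as a trait of the set. The median RPKM over all tested genes was 6.07 in F/- replicate 1 and 5.69 in F/- replicate 2.

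**Figure D3:**
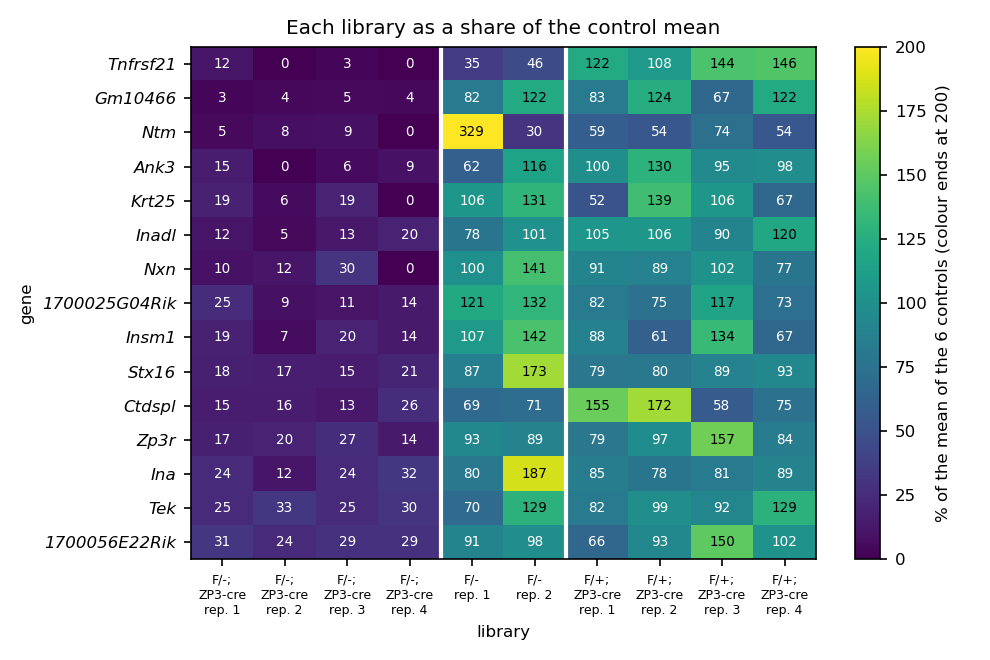
RPKM of each gene (rows, lowest mutant share at the top) in each library (columns) as a percentage of the mean of the 6 controls, written in each cell and shown by colour, which is capped at its top value. The mutant columns have medians of 8.66% to 17.5% and the control columns of 82.7% to 122%, and Ntm reaches 329% in F/- replicate 1.

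The contrast between the 2 control genotypes did not itself choose the genes and was tested, although the selection used the lowest of the same control values. The contrast asks whether the set also differed between F/- oocytes (a floxed and a deleted allele, no Cre) and F/+; ZP3-cre oocytes (a floxed and a wild-type allele, with Cre). In limma on log2(RPKM + 0.5), with Benjamini-Hochberg adjustment over 11338 genes, 0 of the 15 genes passed an adjusted p of 0.05, against 8 of all tested genes (0.0706%). At an unadjusted p under 0.05 there was 1 of the 15 and 1584 of all tested genes. That gene was Tnfrsf21, whose log2 difference, F/- minus F/+; ZP3-cre, was -1.36 ± 0.36 (SE; 95% interval -2.14 to -0.57; limma adjusted p = 0.14). The other 14 differences ran from -0.48 (Ctdspl) to 0.73 (Ntm, 95% interval -0.63 to 2.10), with limma adjusted p from 0.55 to 0.98. The Ntm difference turned on 1 library: it was -0.77 without F/- replicate 1 and 2.23 without F/- replicate 2. Intervals this wide leave differences of over 2-fold undetected in some genes. The F/- and F/+; ZP3-cre libraries did not overlap in 2 of the 15 genes, Tnfrsf21 and 1700025G04Rik, and in 29.6% of all tested genes. With only 2 F/- libraries, leaving 1 out makes that group a single pool with no spread of its own. Counts of calls from such fits are therefore not read. The selection set a floor for every control and no ceiling. It limits how low, but not how high, a control group could lie in these genes.

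**Figure D4:**
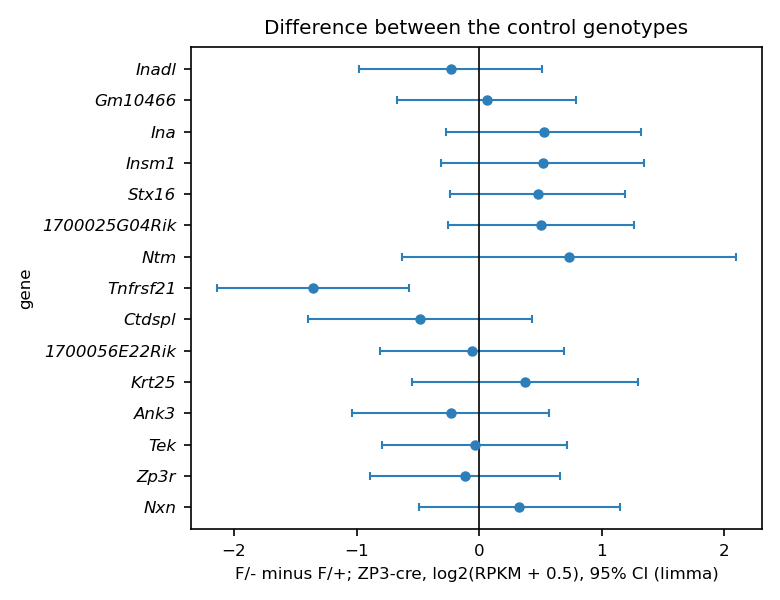
Difference in log2(RPKM + 0.5), F/- minus F/+; ZP3-cre, for each of the 15 genes, with points for the limma estimate and bars for its 95% interval. The interval of Tnfrsf21 (-2.14 to -0.57) is the only one that does not reach 0.

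In the contrast that chose the genes, limma called 252 of 11338 genes lower in mutants (2.22%) and 352 higher (3.10%). All 15 were among the lower ones; the selection used this contrast, so nothing is read from that count. With median centring of the libraries the split of these calls was 303 higher and 339 lower, and with quantile normalization 322 and 337. Log2 differences of the set, mutant minus control, ran from -3.31 (Gm10466) to -1.21 (Tek), with a median of -1.88 against 0.03 for all tested genes.

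Inadl belongs to the apical polarity genes. Of 24 such genes (Crumbs, PAR and Scribble), 18 were tested, and Inadl was chosen on this contrast, so its own call is no result. Of the other 17, 1 fell, 1 rose and 15 did not pass the limma test, with a median log2 difference of -0.03 (0.03 over all tested genes). Prkci, the atypical protein kinase C of the PAR complex, fell from 16.8 ± 11.2 RPKM (SD, n = 6) to 5.98 ± 2.83 (SD, n = 4; limma adjusted p = 0.049). That call was lost in 11 of 18 alternatives (limma adjusted p up to 0.149), among them leaving out any 1 library other than F/- replicate 2 or F/-; ZP3-cre replicate 3. Lin7b, a PDZ partner of the Crumbs complex, rose from 1.79 ± 0.875 to 11.8 ± 8.18 RPKM (same n; limma adjusted p = 0.028). It was lost in 6 of 18 (limma adjusted p up to 0.107), with no filter and without F/-; ZP3-cre replicate 1, 3 or 4 or F/+; ZP3-cre replicate 1 or 2. Of 18 tight junction genes, 10 were tested and 1 fell. It was Tjp1, the scaffold ZO-1, at 31.8 ± 2.45 RPKM in controls and 21.7 ± 1.31 in mutants (same n; limma adjusted p = 0.012), and it passed in all 18 alternatives.

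Of 37 TNF receptor family and adaptor genes, 12 were tested, of which Tnfrsf21 was chosen on this contrast. None of the other 11 passed the limma test, and their median log2 difference was -0.16. Among 68 Trim genes, 28 were tested, 3 fell, 2 rose and 23 did not pass. Over all tested genes 2.22% were called lower and 3.10% higher. Trim35 is among those that fell and was a proposed marker, so its own call is no result. Trim35, Trim37 and Trim44 fell, the latter pair from 5.02 to 2.56 and from 22.2 to 13.9 RPKM. Trim3 rose from 2.03 to 5.36 RPKM and Trim71 from 14.5 to 24.4 RPKM. Of these 5, only Trim35, itself picked with these values known, kept its call in all 18 alternatives; the calls of Trim3, Trim37, Trim44 and Trim71 were lost in 11, 8, 4 and 1 of them, with limma adjusted p up to 0.12, 0.091, 0.055 and 0.056. Leaving out 1 library was enough in each: 8 of the 10 libraries for Trim3 (not F/- replicate 1 or F/+; ZP3-cre replicate 3), 7 for Trim37 (not F/- replicate 1 or 2 or F/-; ZP3-cre replicate 3), F/-; ZP3-cre replicate 3 and F/+; ZP3-cre replicates 1, 2 and 4 for Trim44, and F/-; ZP3-cre replicate 4 for Trim71. Of 5 IgLON genes, Ntm was the only one high enough to test, so the list gives no result beyond the selected gene. None of the tested genes of these lists was called between the control genotypes.

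The 15 genes lie on 8 chromosomes, 3 each on 1 and 11, and the closest pair, Tek and Inadl, lies 3.52 Mb apart. Neighbours were the nearest genes on each side that do not overlap the gene itself, so overlapping genes were not counted. None of the 30 neighbours was one of the 15. Of 18 neighbours that could be tested, 0 fell and 1 rose in limma, against 2.22% and 3.10% of all tested genes. Their median log2 difference, mutant minus control, was -0.20, against 0.03 over all tested genes. The riser was Itga9, an integrin subunit gene 25.5 kb from Ctdspl, at 38.5 ± 8.40 RPKM (SD, n = 6) in controls and 60.3 ± 3.99 (SD, n = 4) in mutants (limma adjusted p = 0.023). Its call was lost in 6 of 18 alternatives (limma adjusted p up to 0.071), with no filter and without F/-; ZP3-cre replicate 1, 2 or 3 or F/+; ZP3-cre replicate 1 or 2. Dusp10, 0.383 kb from 1700056E22Rik, had 11.8 ± 3.27 RPKM in controls and 10.2 ± 3.10 in mutants (same n; limma adjusted p = 0.66). Pcgf6, 8.29 kb from Ina, had 89.5 RPKM in controls and 86.4 in mutants. Opcml, the IgLON gene next to Ntm, was too low to test.

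Exons of 3 genes overlap a gene on the other strand in GENCODE M21, and the libraries do not mark strand, so shared reads cannot be assigned. Ina shares 456 of 3240 exonic bases with Nt5c2, which had 8.42 RPKM in controls and 6.34 in mutants. Gm10466 shares 57 of 2466 bases with Gm12068, and 1700025G04Rik shares 333 of 11788 with Gm28610.

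Transcript length and base composition were also compared. The 15 transcripts had a median length of 3100 bases (967 to 9559) and a median GC content of 49.3%, against 2868 bases and 49.4% in 8049 genes with at least 1 RPKM in every control and a known length.

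RefSeq promoter windows were found by gene identifier for 13 of the 15 genes, with 17 starts, and none for Insm1 and Ank3. The windows of the set held a median of 17 CpG (range 1 to 43), against 21 in 8395 starts of expressed genes and 7 in all 32851 starts. Windows with at most 6 CpG, such as those of Gm10466 and Krt25 printed above, made up 6 of 17 (35.3%), 14.6% of expressed starts and 47.9% of all starts. The set thus spans CpG-rich starts, like the printed start of Inadl, and CpG-poor ones, among them another Inadl start with 4 CpG.

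Short motifs were searched on both strands. GGGCGG, the core of a GC box, was found in 9 of 17 windows (52.9%; 62.4% of expressed and 35.7% of all starts). CCAAT was found in 4 (23.5%; 39.0% and 37.4%), CANNTG, the E-box, in 13 (76.5%; 63.5% and 72.3%), and TGACGTCA in 0 (3.24% and 1.79%). TATAAA and TAATTA were each found in 1 window (5.88%), both in Krt25, against 7.16% and 2.79% of expressed starts and 13.6% and 5.29% of all starts. A match describes these letters only, and 3 genes (Inadl, Ntm and Stx16) contribute more than 1 window.

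**Figure D5:**
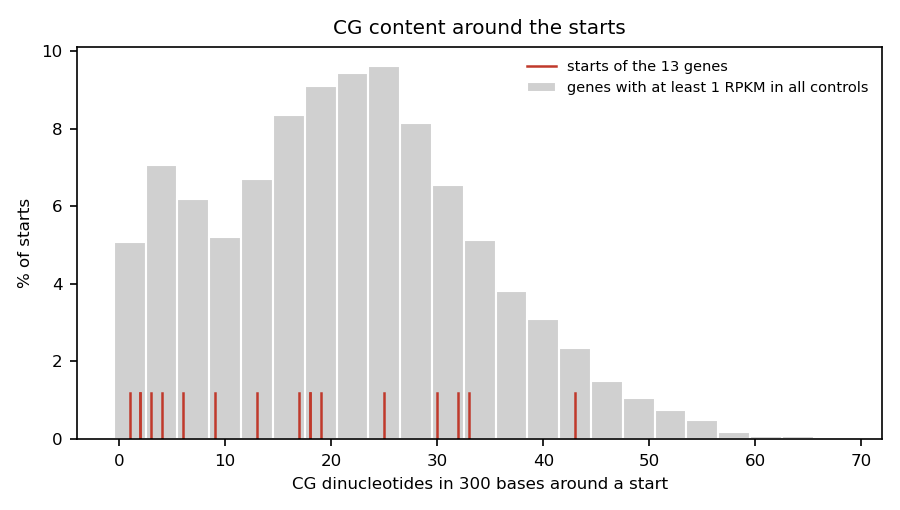
Grey bars give the percentage of the 8395 promoter windows of genes with at least 1 RPKM in all controls by their number of CG dinucleotides in 300 bases, and red lines mark the 17 starts of the 13 genes with a window (line height carries no value). Lines stand at the CpG-poor end, down to 1, and among the CpG-rich windows, up to 43.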

How the data were processed

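The authors deposited RPKM values per RefSeq transcript, in 1 table of 34768 rows and 10 libraries. Per the labels' protocols, RNA was amplified with NuGen Ovation and libraries made with TruSeq DNA, and bcl2fastq 1.8.3, STAR and mm10 come from the submitters' processing notes. No counting tool is given in those sources. Amplification of small pools adds spread, most for low values.

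The row with the highest mean stood for a symbol. Tests used limma 3.58.1 in R 4.3.3 (empirical Bayes trend) on log2(RPKM + 0.5), which understates changes of low genes, for genes averaging at least 0.5 RPKM, with Benjamini-Hochberg adjustment and a threshold of 0.05. The 15 genes and the gene lists were chosen with earlier results of these data known. Named are the 15, the nearest 4 genes on each side of the margin, and list members and neighbours that passed. Some markers and neighbours that did not pass or were too low to test are named as well. Replicates are pools of different mice. Reads per value were estimated from the spacing of low values, of which 64.0% to 67.8% per library lay within 0.1 of a whole read, so they are approximate.

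Alternatives were other pseudocounts, filters, scalings and weights, a replicate block, and each library left out.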

Additional observations from a re-analysis of the deposited data

Results flagged for a closer look

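Of 30 gene and group combinations with 4 libraries checked, 1 had a library far from the others. Ank3 was 2.68 RPKM in F/+; ZP3-cre replicate 2 and 1.96 to 2.06 RPKM in the other 3 libraries of that group. The gap made up 0.860 of the group's range. Chance flags about 1 in 20 such groups.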

How the results depend on the processing

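The number of selected genes (15) was 25 with a lowest control of 0.5 RPKM, 6 with 2 RPKM, 6 with mutants at most 33.3% of the lowest control and 28 with at most 66.7%. Leaving out 1 library gave 15 to 35, with 35 without F/-; ZP3-cre replicate 3, 29 without F/- replicate 2 (Trim35 then included) and 23 without F/- replicate 1. All 15 stayed whichever library was left out, which the selection fixes. At 2 RPKM and at 33.3%, 6 of the 15 stayed.

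Of the 15, 0 were called between the control genotypes under each alternative run that kept both F/- libraries. The 277 single-gene values of that difference kept their side of the threshold, and 17 changed direction, all in 7 genes whose difference did not pass. In log2, F/- minus F/+; ZP3-cre, quantile normalization gave 0.054 for Tek and 0.0086 for Zp3r, array weights -0.014 for Gm10466, 0.098 for 1700056E22Rik and 0.021 for Zp3r. With 1 library left out the values ran from -0.77 to 2.23 for Ntm, -0.048 to 1.10 for Ina, -0.21 to 0.33 for Gm10466, -0.59 to 0.12 for Ank3, -0.38 to 0.31 for Tek, -0.22 to 0.11 for 1700056E22Rik and -0.21 to 0.058 for Zp3r. The extremes came without F/- replicate 1 or 2 for the first 5 genes and without F/+; ZP3-cre replicate 1 or 3 for the last 2. All genes called there (8) became 25 with a pseudocount of 0.1, 21 with no filter, 25 at a mean of at least 2 RPKM, 17 with quantile normalization, 0 with array weights and 18 with only the control libraries. Leaving out 1 library gave 0 to 843. Mutant against control, 604 genes became 399 with no filter and 1388 with array weights, and 357 to 801 with 1 library left out. The selection used this contrast, so nothing is read from how many of the 15 were called in it. That number was 14 with a pseudocount of 2, with no filter, and without F/+; ZP3-cre replicate 2 or 4. At a mean of at least 2 RPKM, 7 of the 15 had a value and 7 were called. The set's median log2 difference (-1.88) was -2.64 with a pseudocount of 0.1, -1.15 with 2, and -2.21 at a mean of at least 2 RPKM.

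Deviations from the group means showed correlations of -0.046 to 0.031 between same-numbered libraries, and 2 of 4 mutants correlated best with their own number. Whether libraries of the same number were prepared together was not tested, and these values cannot decide it. With the replicate number as a block, 1 gene was called between the control genotypes and 511 between mutants and controls, and the difference between control genotypes was 0.087 for 1700056E22Rik and 0.00996 for Tek.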
